A study of Homo sapiens with 647 samples.

Results

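The 7 genes read as a cadherin and mesenchymal panel were followed by name through the deposited count table, which made them 7 of 54592 rows: the cadherins CDH1, CDH2 and CDH3, the intermediate filament gene VIM, the matrix gene FN1, and the transcription factors ZEB1 and SNAI2. They were measured by SMART-Seq2 RNA sequencing in 647 libraries of T47D, an estrogen receptor positive luminal breast cancer line. Per the labels the cells had been newly infected with lentivirus (vector pLX307), giving lines named for FGFR1, FGFR2_WT, FGFR2_M538I, FGFR2_N550K, FGFR2_K660N and FGF3, with GFP and parental lines as controls; the labels do not say whether a line is a clone or a pool. Cells had been plated for 48 h in 96-well plates and were treated for 24 h. The agents were trametinib (Tram, 500 nM), which inhibits MEK, FIIN-3 (100 nM), a covalent blocker of FGFR kinases, palbociclib (Palbo, 1 µM), which inhibits CDK4 and CDK6, and fulvestrant (Fulv, 100 nM), which degrades the estrogen receptor. The ligand FGF2 was given at a dose that the labels used here do not state, and DMSO was the vehicle.

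The libraries fell into 64 groups of line and treatment in set 1 and 48 in set 2, of 4 to 6 libraries each. In set 1 the 5 receptor lines and the 2 controls received Fulv+FGF2+FIIN-3, Fulv+FGF2+Tram, Fulv+Palbo+FGF2, Fulv+FGF2, FIIN-3+FGF2, Fulv, FGF2 and DMSO, and the FGFR2_N550K line also received FIIN-3 and Fulv+FIIN-3. In set 2 the same 7 lines received Fulv+Palbo+FGF2+Tram, Fulv+Palbo+FGF2+FIIN-3, Palbo+FGF2+FIIN-3, Palbo+FGF2, FIIN-3 and Palbo, and had no vehicle group. The FGF3 line, which makes its own ligand, received no FGF2: its groups were Fulv+Tram, Fulv+Palbo, Fulv+FIIN-3, FIIN-3, Fulv and DMSO in set 1, and Fulv+Palbo+Tram, Fulv+Palbo+FIIN3, Palbo+FIIN-3, FIIN-3, Palbo and a group labelled control in set 2. Whether a group's libraries came from separate cultures is not stated in the labels, so each p-value reflects the spread among libraries alone, and that spread may be technical.

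CDH1 encodes E-cadherin, the adhesion molecule of epithelial junctions, whose loss together with a gain of N-cadherin (CDH2) is the classical cadherin switch of the epithelial-mesenchymal transition. CDH3 encodes P-cadherin, a classical cadherin of basal epithelial cells. Vimentin (VIM) and fibronectin (FN1) are used as mesenchymal markers, and the zinc finger factors ZEB1 and SNAI2 bind E-box elements and repress CDH1. FGF ligands act through receptor tyrosine kinases on the RAS-RAF-MEK-ERK pathway, which trametinib blocks at MEK. Luminal breast cancer lines are known for high E-cadherin and keratins and for little vimentin.

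Each introduced gene had a higher median in the lines labelled with it than in the others. The line labelled FGFR1 had a median of 822 CPM of FGFR1 in set 1, against 9.02 CPM in all other lines. The FGFR2 lines had 450 CPM of FGFR2, against 13.7 CPM, and the FGF3 line had 308.8 CPM of FGF3, against 0 CPM. Single FGFR2 values overlapped in set 1: the lowest FGFR2-line library had 27.9 CPM and the highest library of the other lines 34.3 CPM. Total counts had a median of 7570052 in set 1 (512961 to 13012180) and 2887186 in set 2 (619509 to 4804935). All 7 luminal markers (KRT8, KRT18, KRT19, EPCAM, GATA3, FOXA1 and ESR1) were read in every library, and the blood markers PTPRC, CD3E and LYZ and the endothelial markers PECAM1, VWF and CDH5 had medians of 0. Of 6 fibroblast markers COL1A1 was read in every set 1 library (median 19.3 CPM), while COL1A2, COL3A1 and PDGFRB had medians of 0; the summed level of the 6 ran from 10.9 to 61.8 CPM in set 1 and from 8.34 to 116.1 CPM in set 2. In 16 libraries the mitochondrial 16S ribosomal RNA MT-RNR2 took under 5% of counts, and these are called libraries that stand apart: 14 in set 1, of which 8 were DMSO and none was an FGF2 library, and 2 in set 2.

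The members moved with this property, and its part in the results was not tested beyond the values given with and without these libraries. All 16 such libraries were the lowest of their group for both CDH1 and CDH3. In set 1 the median of CDH1 was 153.2 CPM in the 14 libraries that stand apart, against 283.7 CPM in the others of the same groups, and for CDH3 the medians were 38.7 and 103.6 CPM. FN1 had medians of 9.25 and 16.96 CPM in the same order, and was lowest of its group in 10 of the 14. VIM went the other way, with medians of 7.69 and 2.37 CPM, and was highest of its group in 12 of the 14. 

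Per length the members fell into high, low and barely read genes. Measured in TPM, a level scaled for both transcript length and library total, over the 87 DMSO and FGF2 libraries of set 1 that were read from the second deposited table, CDH1 had a median of 87.6 TPM (17.2 to 167.9) and CDH3 of 39.2 TPM (3.35 to 71.6). FN1 followed at 3.12 TPM (0.532 to 7.83) and VIM at 0.974 TPM (0 to 3.86). CDH2, ZEB1 and SNAI2 had medians of 0 TPM. The highest CDH2 value among the 87 was 0.900 TPM, far under the lowest CDH1 value.

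Levels of the same gene between groups are given below in CPM, read counts brought to a common library total by the trimmed mean of M values (TMM) within a set. CDH1 varied the least: its highest group mean in set 1 was 423 ± 105.6 CPM (mean ± SD) in FGFR2_N550K cells under FIIN-3 and its lowest 192.5 ± 47.4 CPM in FGFR2_WT cells at DMSO, a ratio of 2.20. In set 2 the highest was 608 ± 76.2 CPM in FGFR2_N550K cells under Fulv+Palbo+FGF2+Tram and the lowest 315.3 ± 99.7 CPM in FGFR1 cells under FIIN-3, a ratio of 1.93. For 6 of the 8 lines DMSO was the group with the lowest CDH1 mean of set 1. These means include the libraries that stand apart, 8 of which were DMSO libraries, each lowest of its group for CDH1 and CDH3. Such libraries lie in the DMSO groups of FGFR2_WT and FGFR2_N550K cells, which hold extremes of CDH1, CDH3 or VIM here and below. Whether the order of groups holds without them is not given here.

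CDH3 spanned a ratio of 2.64 in set 1, with 201.4 ± 49.6 CPM in FGFR2_M538I cells under Fulv+FGF2+Tram at the top and 76.2 ± 28.7 CPM in FGFR2_WT cells at DMSO at the bottom. In set 2 the ratio was 2.58, with 219.4 ± 15.5 CPM in FGFR2_N550K cells under Fulv+Palbo+FGF2+Tram and 85.1 ± 39.7 CPM in parental cells under Palbo. In each of the 7 lines that received FGF2 the trametinib group held the highest CDH3 mean of its set, in set 1 and again in set 2. The FGF3 line had the highest CDH3 of the 8 lines in set 1, with a median over its group means of 182.5 CPM, against 98.4 to 121.9 CPM in the 7 others.

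FN1 ranged over a ratio of 3.06 in set 1, between 28.2 ± 5.39 CPM in FGFR2_N550K cells under Fulv+FIIN-3 and 9.23 ± 4.88 CPM in FGFR2_M538I cells under Fulv+FGF2. In set 2 the ratio was 3.96, between 45.3 ± 9.57 CPM in parental cells under Fulv+Palbo+FGF2+FIIN-3 and 11.4 ± 3.41 CPM in FGFR2_WT cells under Palbo+FGF2. Palbo+FGF2 was the lowest FN1 group of set 2 in all 7 lines that received it, and Fulv+Palbo+FGF2+FIIN-3 the highest in 6 of them; in FGFR2_N550K cells the highest was FIIN-3 alone.

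VIM had the widest range at the lowest level, a ratio of 11.8 in set 1 and 12.4 in set 2. Its set 1 means ran from 0.423 ± 0.233 CPM in FGFR2_WT cells under FGF2 to 5.01 ± 4.26 CPM in FGFR2_N550K cells at DMSO. Its set 2 means ran from 0.385 ± 0.403 CPM in FGFR2_M538I cells under Fulv+Palbo+FGF2+Tram to 4.77 ± 1.49 CPM in FGF3 cells under Palbo. The group SDs were of the size of the means for the highest VIM groups of set 1. When the groups of a set were ordered by mean, no neighbouring pair differed by more than the larger SD of the pair for CDH1, CDH3, VIM or FN1, except 1 pair for FN1 in set 2.

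CDH2, ZEB1 and SNAI2 were read in 53, 48 and 66 of the 647 libraries, while VIM was read in 611 and FN1, CDH3 and CDH1 in all. Over all libraries 6630 reads fell on VIM, 67251 on FN1, 418558 on CDH3 and 1173321 on CDH1. CDH2, ZEB1 and SNAI2 passed the filter on low counts in no comparison, so only their reads are described here. SNAI2, which encodes the repressor Slug, had at least 1 read in 38 of 65 FGF3-line libraries (58.5%, exact Clopper-Pearson 95% interval 45.6 to 70.6), against 28 of 582 libraries of the other lines (4.81%, 3.22 to 6.88). The share was similar in the 2 sets, 21 of 33 and 17 of 32 libraries of the FGF3 line. That line held 63.6% of all SNAI2 reads and 6.25% of all reads, and the other 7 lines held 87 SNAI2 reads together. CDH2 was read in 19 of 65 FGF3-line libraries (29.2%, 18.6 to 41.8), against 34 of 582 others (5.84%, 4.08 to 8.07), with 58 reads in the FGF3 line and 68 in all others together. ZEB1 was read in 3 of 65 libraries of the FGF3 line (4.62%, 0.962 to 12.9), against 45 of 582 (7.73%, 5.70 to 10.2). The intervals take libraries pooled over treatments, sets and, for the others, lines as independent draws with a single share. They do not cover differences in depth or between lines, and the FGF3 line is a single line. Its median total in set 1 was 3403810, against 7300470 to 8926800 in the other lines.

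**Figure D1:**
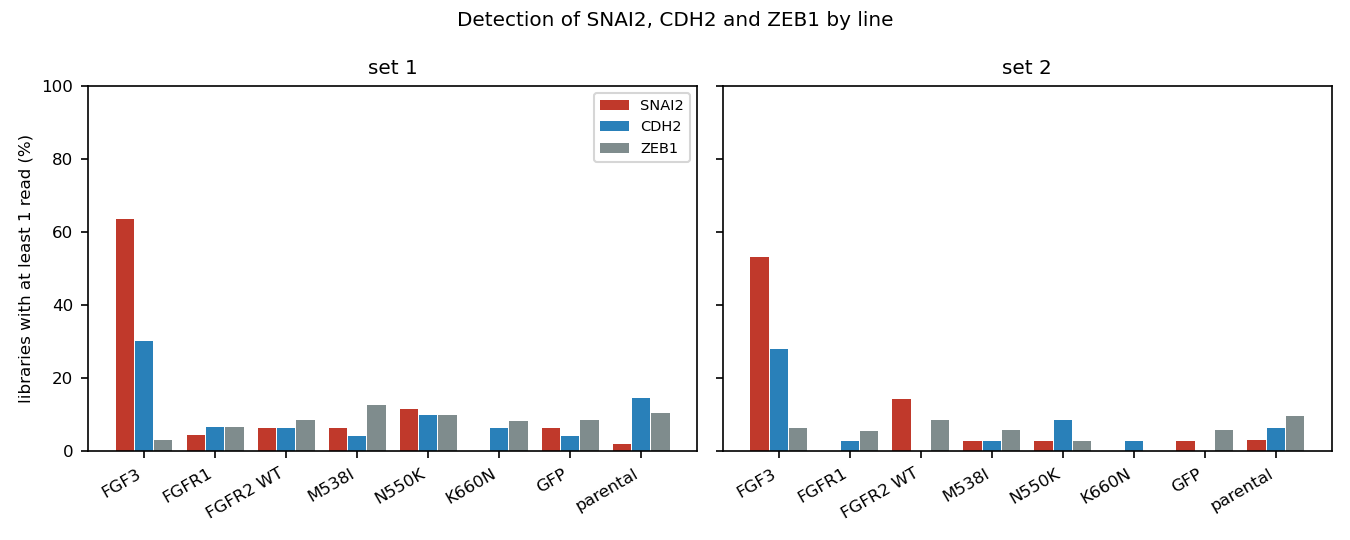
Bars give the percent of libraries with at least 1 read (y axis) of SNAI2, CDH2 and ZEB1 for each of the 8 lines (x axis), with set 1 in the left panel and set 2 in the right. The SNAI2 bar of the FGF3 line, 21 of 33 and 17 of 32 libraries, is the tallest bar of each panel.

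Within the FGF3 line the reads were spread over treatments. At DMSO the 5 libraries held 0, 2, 2, 2 and 2 SNAI2 reads, under FIIN-3 in set 1 the 6 libraries held 0, 2, 4, 6, 8 and 10, and under Palbo in set 2 all 6 libraries held between 2 and 6. Under Fulv+Palbo+FIIN3 a single library of 6 held all 10 reads. CDH2 reached its highest count, 12 reads, in 1 FGF3-line library under Fulv, while all 6 libraries under Fulv+Tram held 0. Of the nonzero SNAI2 counts 98.5% were even, against 58.1% over all genes, so 2 reads cannot be told apart from 1 fragment counted by both of its ends. No SNAI2 read fell in the FGFR2_K660N libraries, where 3 reads over the summed totals would be 0.00917 CPM in set 1 and 0.0305 CPM in set 2, and no CDH2 read in the GFP libraries of set 2, where 3 reads would be 0.0300 CPM. These limits take each read as independent, and would be higher if both ends of a fragment were counted. The highest single values elsewhere were 18 SNAI2 reads in 1 FGFR2_M538I library under Fulv+FGF2 and 6 ZEB1 reads in 1 FGFR2_K660N library under Fulv.

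VIM and FN1 were the members called in both directions across treatments, described below, and the 250 bases upstream of their starts are shown for that reason. The sequences are from RefSeq on GRCh38.p14, read 5′ to 3′ on the gene's strand; a CRE (TGACGTCA, the site of CREB and ATF factors) is in capitals where found. VIM lies on chromosome 10 and its window is chr10:17227991-17228240 on the plus strand. FN1 lies on chromosome 2 and its window is chr2:215436069-215436318 on the minus strand.
VIM: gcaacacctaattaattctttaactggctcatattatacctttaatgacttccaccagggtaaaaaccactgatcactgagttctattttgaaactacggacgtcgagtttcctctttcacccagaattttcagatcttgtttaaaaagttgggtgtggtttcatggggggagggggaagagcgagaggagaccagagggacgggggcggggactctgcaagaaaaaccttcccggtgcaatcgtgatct
FN1: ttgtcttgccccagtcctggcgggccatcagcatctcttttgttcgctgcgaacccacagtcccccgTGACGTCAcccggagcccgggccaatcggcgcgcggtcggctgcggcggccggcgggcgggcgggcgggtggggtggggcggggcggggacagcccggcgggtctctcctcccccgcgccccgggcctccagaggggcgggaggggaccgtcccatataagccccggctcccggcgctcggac
The FN1 window had 76.4% G and C and held 1 CRE, a motif found in 1.65% of 35116 promoters of the same table, and 6 GC boxes (GGGCGG, in 42.6% of promoters). The VIM window had 46% G and C and held 1 GC box, 46 bases upstream. Neither held an AP-1 motif (TGANTCA, in 6.57%), the E-box CAGGTG of SNAI and ZEB factors (17.5%) or TATAAA (10.7%), with both strands searched. A match is a description and not a binding site. CDH1 and CDH3 lie on chromosome 16, CDH2 on 18, ZEB1 on 10 and SNAI2 on 8. Antisense genes overlap VIM (VIM-AS1), ZEB1 (ZEB1-AS1), CDH1, CDH2 and CDH3, and since no source used here gives the strand setting of the counting, reads of a gene and its antisense partner cannot be told apart.

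The first question was whether a line alone shifted the panel. Without added FGF2 or drug no member was called in any of the 7 lines set against GFP at DMSO (0 of 4 tested in each: CDH1, CDH3, VIM and FN1). The calls are edgeR quasi-likelihood tests with Benjamini-Hochberg adjustment over all genes tested in a comparison, at an adjusted p under 0.05. The percent of all tested genes called was 0.00787% for FGFR1, 0.00808% for FGFR2_WT, 0.0159% for FGFR2_M538I, 1.6% for FGFR2_N550K, 1.51% for FGFR2_K660N, 7.18% for FGF3 and 0% for the parental line, in which 1898 genes had an unadjusted p under 0.05, DESeq2 called 58 and limma 0. All 7 comparisons share the same 6 GFP libraries. At an unadjusted p under 0.05 lay FN1 in FGFR2_WT and CDH3 in FGF3, and DESeq2 called the CDH3 value.

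CDH3 at DMSO measured 127.7, 132.05, 151.1, 152.8 and 159.1 CPM in the 5 FGF3 libraries, against a lowest, median and highest value of 22.2, 90.8 and 94.8 CPM in the 6 GFP libraries. The 2 groups did not overlap, and 1 GFP library lay far below its group. The log2 fold change was 0.92 ± 0.29 with an edgeR adjusted p of 0.0686. Without that GFP library, replicate 6, which stands apart, it was 0.76, adjusted p = 0.000754. FN1 lay at 3.76, 9.07 and 20.1 CPM in FGFR2_WT cells, against 10.3, 16.7 and 26.1 CPM in GFP cells (lowest, median and highest), with overlapping groups (log2 fold change −0.74 ± 0.34, edgeR adjusted p = 0.63). In bulk samples, here and below, fewer cells expressing a gene and less RNA per cell cannot be told apart.

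With FGF2, set against DMSO, VIM fell in the FGFR1 and FGFR2_M538I lines, and CDH1, CDH3 and FN1 were not called in any line in the reported fit. In FGFR1 cells VIM measured 0.129, 0.594 and 1.32 CPM with FGF2 (lowest, median and highest of 6), against 1.05, 1.25, 2.09, 3.29 and 10.8 CPM in the 5 DMSO libraries. The groups overlapped in a narrow range, and the highest DMSO value came from a library that stands apart. VIM fell (log2 fold change −2.43 ± 0.65, edgeR adjusted p = 0.0135; 1 of 4 members called, against 31.6% of all genes), and without that library, FGFR1 DMSO replicate 3, the change was −1.504, adjusted p = 0.0262, and with a term for ranges of title numbers −1.19, adjusted p = 0.0438. Without FGFR1 DMSO replicate 4 or 5, or FGF2 replicate 3, 4 or 5, VIM no longer passed the filter on low counts. In FGFR2_M538I cells VIM measured 0.382, 0.801 and 1.54 CPM with FGF2, against 0.871, 2.005, 2.64, 5.05 and 5.32 CPM in the 5 DMSO libraries, 2 of which stand apart. It also fell (log2 fold change −1.99 ± 0.55, edgeR adjusted p = 0.0456; 1 of 4 members, 5.54% of all genes), but this call was lost without those 2 libraries (−1.21, adjusted p = 0.352), with the block for pairs of neighbouring title numbers (−1.64, adjusted p = 0.0682), with the title-range term (−1.08, adjusted p = 0.344) and in 7 fits that left out 1 library (DMSO replicates 3 and 4, FGF2 replicates 1, 2, 4, 5 and 6).

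In FGFR2_WT cells VIM measured 0.106, 0.420 and 0.757 CPM with FGF2, against 1.37, 2.39 and 4.94 CPM at DMSO, and the groups did not overlap. VIM did not pass the filter on low counts there, and the 3 members tested gave 0 calls against 19.9% of all genes, with 1 member at an unadjusted p under 0.05, 1 called by DESeq2 (VIM) and 2 by limma on the second table (CDH1 and CDH3). Without the filter the VIM change was −2.60, adjusted p = 0.00104. The DMSO groups of FGFR2_WT and FGFR2_N550K cells held libraries that stand apart, a kind in which VIM was mostly higher. VIM changes without those libraries are not given here for these lines. In FGFR2_N550K cells VIM changed by −1.76 ± 0.53 (edgeR adjusted p = 0.195), in FGFR2_K660N cells by −0.04 ± 0.34 (0.976) and in the 2 control lines by −0.44 ± 0.40 (0.554). These 3 comparisons called 0 of 4 members, against 0.0957%, 0.515% and 6.12% of all genes. In N550K cells 1 member had an unadjusted p under 0.05 and DESeq2 called VIM; in K660N cells and controls no member did and DESeq2 called 0. With the title-range term FN1 was called lower in the controls (−0.62, adjusted p = 0.0285), where the reported fit gave −0.13 ± 0.21 (0.773).

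**Figure D2:**
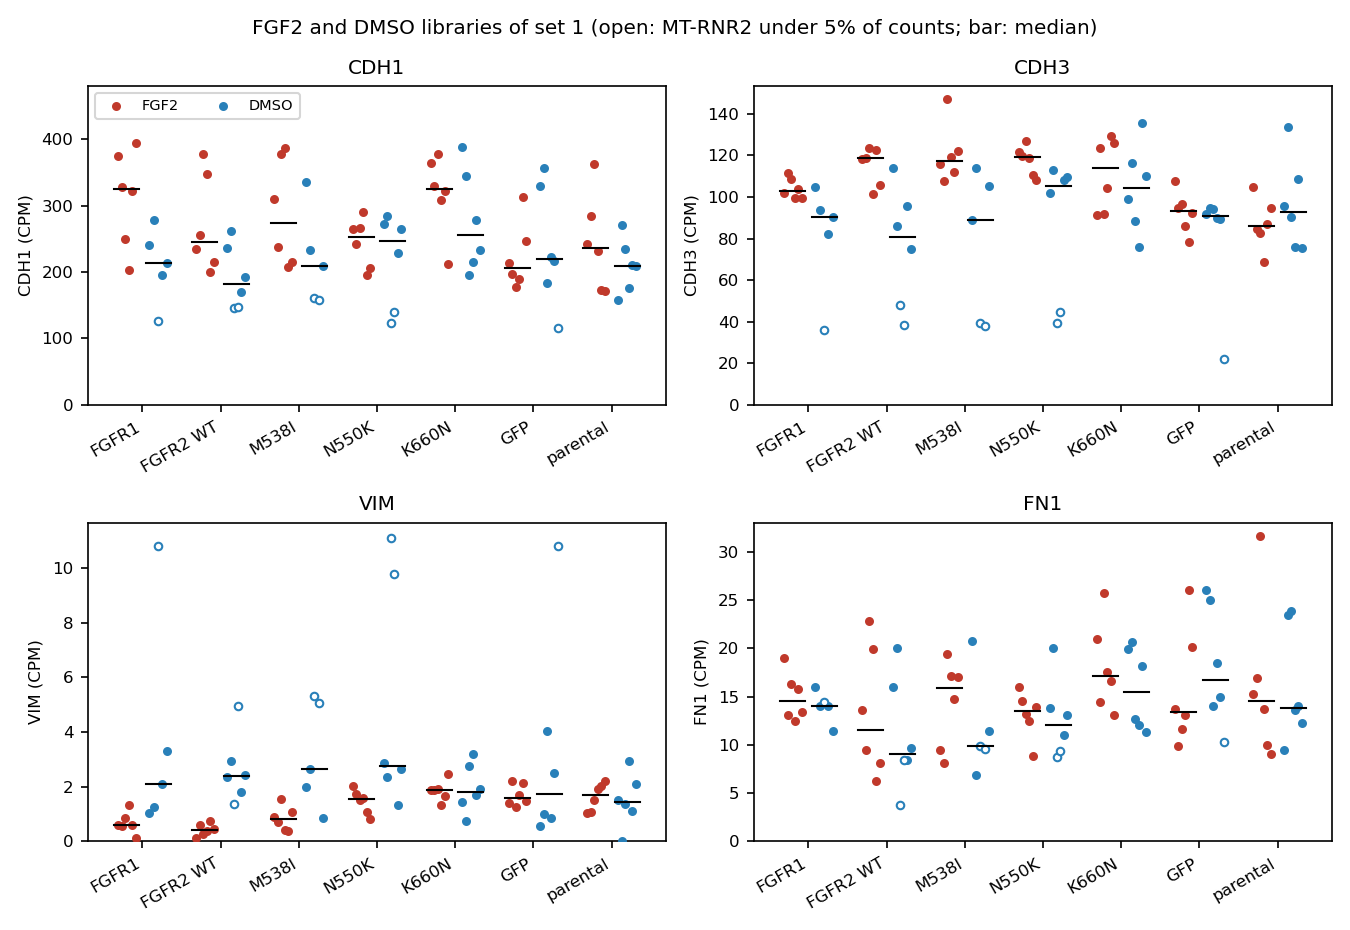
Levels of CDH1, CDH3, VIM and FN1 (y axes, CPM, 1 panel per gene) in FGF2 and DMSO libraries of set 1 for the 7 lines that received FGF2 (x axis); each point is 1 library, open points have MT-RNR2 under 5% of counts, and bars are medians. VIM medians of the FGFR1, FGFR2_WT and FGFR2_M538I lines are 0.594, 0.420 and 0.801 CPM with FGF2, against 2.09, 2.39 and 2.64 CPM at DMSO, and most open points are low for CDH3 and high for VIM.

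Whether FGF2 acted on the members differently in receptor lines and controls was tested as an interaction, and 0 of 4 members were called. The FGFR1 minus controls interaction called 3.24% of all genes and gave VIM −1.90 ± 0.77 (edgeR adjusted p = 0.163). The FGFR2 lines minus controls interaction called 1.96% and gave VIM −1.06 ± 0.48 (0.256) and CDH3 0.44 ± 0.21 (0.284). At an unadjusted p under 0.05 lay 1 member in the first and 2 in the second, and DESeq2 and limma called 0. With the title-range term the FGFR1 interaction called VIM (−2.02, adjusted p = 0.0218) and CDH1 (0.57, adjusted p = 0.0459), and the FGFR2 interaction called CDH3 (0.51, adjusted p = 0.0352). Whether the fall of VIM differs between FGFR1 cells and controls therefore depends on that term.

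Fulvestrant alone was set against DMSO to ask what loss of estrogen receptor signalling does without ligand. In the 5 receptor lines CDH1 measured 149.02, 266.1 and 428 CPM in Fulv libraries (n = 30), against 123.3, 221.4 and 387.6 CPM in DMSO libraries (n = 28). The distributions overlapped over most of their range. CDH1 was called higher (log2 fold change 0.32 ± 0.10, edgeR adjusted p = 0.0296), as 1 of 4 members, against 12.3% of all genes. The call was lost without 9 libraries that stand apart, 2 under Fulv and 7 at DMSO (0.21, adjusted p = 0.104). It was also lost without the filter on low counts (0.33, adjusted p = 0.0747). CDH3 and FN1 were called with the title-range term, and alike with the title-pair block, at 0.26, adjusted p = 0.0225 and 0.30, adjusted p = 0.0117. The control lines gave 0 of 4 calls (1.55% of all genes) and the FGF3 line 0 of 4 (0%, with 410 genes at an unadjusted p under 0.05 and 4 called by DESeq2); no member reached an unadjusted p under 0.05 in either and DESeq2 called 0.

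FGF2 added to fulvestrant, in libraries other than those set against DMSO, came with lower VIM again. In FGFR1 cells VIM measured 0.474, 0.860 and 1.28 CPM in Fulv+FGF2 libraries (n = 6), against 1.19, 2.06 and 4.37 CPM in Fulv libraries (n = 6). The groups overlapped in a narrow range (log2 fold change −1.41 ± 0.39, edgeR adjusted p = 0.0113; 1 of 4 members, 26.7% of all genes). The summed fibroblast markers ran there from 12.2 to 15.6 CPM with FGF2 (median 13.6), against 14.3 to 33.03 CPM under Fulv (18.8), and their part was not tested. Over the 4 FGFR2 lines VIM measured 0, 0.978 and 3.64 CPM in Fulv+FGF2 libraries (n = 24), against 0.713, 2.33 and 10.6 CPM in Fulv libraries (n = 24), and it fell (log2 fold change −1.30 ± 0.25, edgeR adjusted p = 4.93e-05; −1.07, adjusted p = 0.000113 once the 2 libraries that stand apart were left out). By line the medians were 0.584, 0.896, 1.08 and 1.91 CPM with FGF2 in FGFR2_WT, FGFR2_M538I, FGFR2_N550K and FGFR2_K660N cells, against 2.39, 1.93, 3.45 and 2.19 CPM under Fulv. Only the FGFR2_WT groups did not overlap.

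CDH3 was the second member called in the FGFR2 lines, where 2 of 4 members were called against 37.2% of all genes. It measured 85.6, 118.1 and 147.995 CPM in Fulv+FGF2 libraries, against 27.1, 101.9 and 130.7 CPM in Fulv libraries and was higher with FGF2 (log2 fold change 0.25 ± 0.10, edgeR adjusted p = 0.0391). The groups overlapped except in FGFR2_N550K cells, and the call was lost without the filter on low counts (adjusted p = 0.0907) and with a term for title ranges (0.16, adjusted p = 0.24). Without the 2 Fulv libraries that stand apart, FGFR2_WT and FGFR2_N550K replicate 3, it was 0.17, adjusted p = 0.0245. FN1 was lower in the median without passing the test (−0.32 ± 0.15, edgeR adjusted p = 0.0966), and was called lower without libraries that stand apart (−0.38, adjusted p = 0.0334) and with the title-range term (−0.71, adjusted p = 4.87e-05). In the controls FN1 had −0.41 ± 0.18 (0.154) and was called lower with the title-range term (−0.71, adjusted p = 0.00494). No member was called there in the reported fit, against 12% of all genes; 1 member had an unadjusted p under 0.05 and DESeq2 called 0.

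FIIN-3 given with FGF2 was set against FGF2 alone, and the FGFR2_N550K line was tested apart from the other FGFR2 lines. VIM rose under FIIN-3 in the FGFR2_WT, FGFR2_M538I and FGFR2_K660N lines (log2 fold change 1.20 ± 0.26, edgeR adjusted p = 0.000131; 1 of 4 members, 54.6% of all genes). It measured 0.440, 1.83 and 4.37 CPM in FIIN-3+FGF2 libraries (n = 17), against 0.106, 0.827 and 2.46 CPM in FGF2 libraries (n = 18). By line the medians were 1.54, 1.71 and 2.94 CPM with FIIN-3, against 0.420, 0.801 and 1.89 CPM with FGF2 alone, and the groups of each line overlapped. The summed fibroblast markers ran from 16.9 to 30.4 CPM with FIIN-3 (median of group medians 23.6), against 11.2 to 35.8 CPM with FGF2 alone (17.2). Of the 2 tested, 1 was called higher and 1 lower (median log2 fold change −0.62), and their part was not tested. FN1 was called higher in these lines with the title-pair block (0.29, adjusted p = 0.0206) and CDH1 with the title-range term (0.19, adjusted p = 0.0423). In FGFR2_N550K cells VIM changed by 1.01 ± 0.33 (edgeR adjusted p = 0.0672; 0 of 4 members, 8.55% of all genes, 1 at an unadjusted p under 0.05, 0 by DESeq2). FGFR1 cells gave 0 of 3 calls (31.3%; 0 members at an unadjusted p under 0.05 and 0 by DESeq2). The FGF2 libraries are the same ones that were set against DMSO above, so the 2 sets of values are not independent.

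In the control lines, which carry no introduced receptor, CDH3 was called higher with FIIN-3 (log2 fold change 0.25 ± 0.08, edgeR adjusted p = 0.02; 1 of 4 members, 24.9% of all genes). It measured 88.7, 106.97 and 117.99 CPM in FIIN-3+FGF2 libraries (n = 12), against 68.5, 89.7 and 107.7 CPM in FGF2 libraries (n = 12), with overlapping groups, and the call was lost without the filter on low counts (adjusted p = 0.192). FGF2 set against DMSO had changed CDH3 in these lines by 0.003 ± 0.158 (edgeR adjusted p = 0.995).

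With fulvestrant and FGF2 both present, FIIN-3 came with higher FN1 in the controls, in FGFR1 cells and over 3 FGFR2 lines. FN1 measured 9.30, 21.7 and 38.4 CPM in Fulv+FGF2+FIIN-3 libraries (n = 18), against 3.34, 14.6 and 21.2 CPM in Fulv+FGF2 libraries (n = 18) of the FGFR2_WT, FGFR2_M538I and FGFR2_K660N lines. The lower end of the first group lay inside the second, and its upper end well above (log2 fold change 0.78 ± 0.17, edgeR adjusted p = 0.000218). In FGFR1 cells it measured 12.6, 16.9 and 38.8 CPM in the triple treatment, against 10.6, 12.6 and 19.6 CPM in Fulv+FGF2 (log2 fold change 0.69 ± 0.26, edgeR adjusted p = 0.0482; 1 of 3 members, 29.7% of all genes). In FGFR1 cells the summed fibroblast markers ran from 20.3 to 25.3 CPM in the triple treatment (median 21.95), against 12.2 to 15.6 CPM in Fulv+FGF2 (13.6), without overlap. Of the 2 tested, 1 was called higher and 0 lower, with a median log2 fold change of 0.08. Their part in the FN1 result was not tested. CDH1 was called higher in FGFR1 cells with the title-range term (0.55, adjusted p = 0.00381). In the 2 control lines FN1 measured 11.4, 24.2 and 38.5 CPM in the triple treatment (n = 11), against 7.73, 16.2 and 29.2 CPM in Fulv+FGF2 (n = 12) (log2 fold change 0.62 ± 0.19, edgeR adjusted p = 0.0161; 1 of 4 members, 24.7% of all genes). FN1 groups overlapped in both. In FGFR2_N550K cells FN1 measured 7.58, 16.1 and 20.4 CPM in the triple treatment, against 11.7, 12.3 and 21.7 CPM in Fulv+FGF2 and was not called (log2 fold change 0.12 ± 0.25, edgeR adjusted p = 0.781). The difference between N550K and the other 3 lines, tested as an interaction, was −0.69 ± 0.35 (edgeR adjusted p = 0.601); this interaction called 0 of 4 members and 1.6% of all genes, with 0 members at an unadjusted p under 0.05 and 0 by DESeq2.

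VIM rose with FIIN-3 in the same 3 lines (log2 fold change 1.01 ± 0.31, edgeR adjusted p = 0.00546) and in FGFR2_N550K cells (log2 fold change 1.44 ± 0.39, edgeR adjusted p = 0.0121; 1 of 4 members, 17.4% of all genes). Over the 3 lines it measured 0, 1.85 and 12.4 CPM in the triple treatment, against 0, 0.896 and 3.64 CPM in Fulv+FGF2, and in N550K cells 1.43, 2.99 and 5.06 CPM in the triple treatment (n = 6), against 0.968, 1.08 and 1.93 CPM in Fulv+FGF2 (n = 6). The highest of the 3-line values came from a library that stands apart, FGFR2_K660N, without which the 3 lines had 0.84, adjusted p = 0.0121 for VIM and 0.82, adjusted p = 4.72e-05 for FN1. The VIM calls in the 3 lines and in N550K cells were lost with the title-range term (0.68, adjusted p = 0.13 and 1.41, adjusted p = 0.0845). The VIM call in N550K cells was also lost without the filter on low counts (adjusted p = 0.0572). CDH1 was the third member called in the 3 lines (log2 fold change 0.23 ± 0.09, edgeR adjusted p = 0.0335), where 3 of 4 were called against 55% of all genes. It measured 224.8, 326.7 and 443 CPM in the triple treatment, against 192.01, 303.8 and 409 CPM in Fulv+FGF2, and its adjusted p was 0.126 without the filter. Over the 3 lines the summed fibroblast markers ran from 17.2 to 39.2 CPM in the triple treatment (median of group medians 23.3), against 14.1 to 37.4 CPM in Fulv+FGF2 (19.3). Of the 2 tested, 1 was called higher and 1 lower (median log2 fold change −0.63), and their part was not tested. In the controls VIM had the opposite sign, −0.68 ± 0.30 (0.103), and was called lower with the title-range term (−1.07, adjusted p = 0.028). CDH1 changed there by 0.30 ± 0.12 (0.056) and CDH3 by 0.19 ± 0.08 (0.0738), and DESeq2 called both. CDH3 was also called with the title-pair block (0.20, adjusted p = 0.0459), and CDH1 with DESeq2 size factors, without the filter and with the title-range term (0.48, adjusted p = 0.00347).

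With trametinib on fulvestrant and FGF2 both CDH1 and CDH3 rose in the FGFR2 lines, and so did FN1. CDH3 measured 56.3, 171.7 and 265.6 CPM in Fulv+FGF2+Tram libraries (n = 24), against 85.6, 118.1 and 147.995 CPM in Fulv+FGF2 libraries (n = 24). By line the medians were 148.6, 219.2, 186.8 and 140.5 CPM with trametinib in FGFR2_WT, FGFR2_M538I, FGFR2_N550K and FGFR2_K660N cells, against 113.7, 120.5, 122.7 and 103.2 CPM without. The N550K groups did not overlap, and in each of the 3 other lines some libraries did. The log2 fold change of CDH3 was 0.57 ± 0.08 with an edgeR adjusted p of 3.54e-07. CDH1 measured 238.01, 384.1 and 551 CPM in trametinib libraries, against 192.01, 276.2 and 409 CPM in Fulv+FGF2 libraries (log2 fold change 0.51 ± 0.09, edgeR adjusted p = 8.75e-06). FN1 measured 8.09, 20.8 and 32.1 CPM in trametinib libraries, against 3.34, 13.2 and 21.7 CPM in Fulv+FGF2 libraries (log2 fold change 0.59 ± 0.15, edgeR adjusted p = 0.00224). Without the FGFR2_K660N library that stands apart the changes were 0.60, adjusted p = 1.59e-09 for CDH3, 0.53, adjusted p = 6.36e-07 for CDH1 and 0.61, adjusted p = 0.00112 for FN1. Of 4 members 3 were called, against 29% of all genes. The summed level of the 6 fibroblast markers ran from 18.8 to 61.8 CPM with trametinib (median of group medians 33.6), against 14.1 to 37.4 CPM (22.2). Of these markers 2 were tested and both were called higher (median log2 fold change 0.95). Over all set 1 libraries COL1A1 had a median of 19.3 CPM, and LUM one of 2.08 CPM with a highest value of 32.3 CPM. The part of these markers in the FN1 result was not tested.

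**Figure D3:**
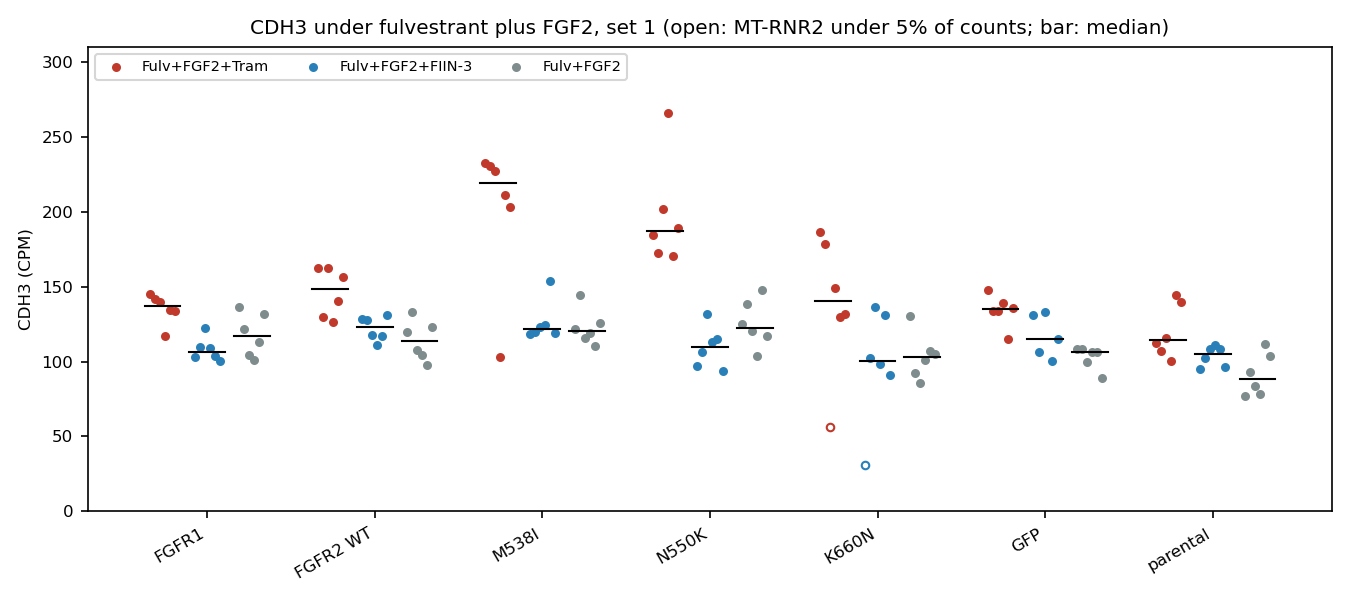
CDH3 (y axis, CPM) by line (x axis) in Fulv+FGF2+Tram, Fulv+FGF2+FIIN-3 and Fulv+FGF2 libraries of set 1; each point is 1 library, open points have MT-RNR2 under 5% of counts, and bars are medians. In FGFR2_N550K cells every trametinib point, from 170.7 CPM, lies above every Fulv+FGF2 point, up to 147.995 CPM.

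In the control lines CDH3 rose with trametinib too. It measured 100.1, 133.8 and 147.6 CPM in trametinib libraries (n = 12), against 76.9, 101.5 and 111.8 CPM in Fulv+FGF2 libraries (n = 12), the GFP groups did not overlap, and the change was 0.37 ± 0.08 (edgeR adjusted p = 0.000523). FN1 rose as well, with 15.3, 23.8 and 39.4 CPM in trametinib libraries, against 7.73, 16.2 and 29.2 CPM in Fulv+FGF2 libraries (log2 fold change 0.52 ± 0.17, edgeR adjusted p = 0.0209). VIM fell, with 0.379, 0.792 and 2.97 CPM in trametinib libraries, against 0.178, 2.05 and 3.32 CPM in Fulv+FGF2 libraries (log2 fold change −0.90 ± 0.32, edgeR adjusted p = 0.0315). The VIM values overlapped over a wide range. These were 3 of 4 members, against 27.8% of all genes. In FGFR1 cells none of 3 members was called (11.3% of all genes; 2 at an unadjusted p under 0.05, 0 by DESeq2), with changes of 0.38 ± 0.15 for CDH1 (0.113), 0.20 ± 0.10 for CDH3 (0.221) and 0.52 ± 0.21 for FN1 (0.118). Without the filter on low counts CDH1 and FN1 were called there (0.40, adjusted p = 0.00661 and 0.54, adjusted p = 0.0396).

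With palbociclib on fulvestrant and FGF2 CDH1 rose in receptor and control lines. In the 5 receptor lines CDH1 measured 190.5, 336.7 and 476 CPM in Fulv+Palbo+FGF2 libraries (n = 29), against 178.3, 272.4 and 409 CPM in Fulv+FGF2 libraries (n = 30) (log2 fold change 0.30 ± 0.08, edgeR adjusted p = 0.00156). In the controls it measured 246.9, 306.4 and 449 CPM in Fulv+Palbo+FGF2 libraries, against 183.8, 242.2 and 354.2 CPM in Fulv+FGF2 libraries (log2 fold change 0.40 ± 0.11, edgeR adjusted p = 0.00563; 1 of 4 members, 26% of all genes). The groups overlapped in both. VIM rose in the receptor lines, with 0.381, 1.67 and 9.59 CPM in palbociclib libraries, against 0, 0.973 and 3.64 CPM in Fulv+FGF2 libraries (log2 fold change 0.92 ± 0.21, edgeR adjusted p = 0.000189; 2 of 4 members, 42.6% of all genes). Without the 2 libraries that stand apart VIM had 0.82, adjusted p = 0.000553 and CDH1 0.31, adjusted p = 0.000417. In the receptor lines the summed fibroblast markers ran from 15.2 to 40.2 CPM with palbociclib (median of group medians 28.2), against 12.2 to 37.4 CPM without (19.3), with 1 of 2 tested called higher, and their part in the VIM result was not tested. In FGFR2_N550K cells the VIM groups did not overlap, with medians of 3.77 CPM with palbociclib and 1.08 CPM without. The Fulv+FGF2 libraries are the same that served FIIN-3 and trametinib above, so the 3 comparisons are not independent.

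FIIN-3 without FGF2 was given in set 1 to FGFR2_N550K cells alone among the receptor lines. CDH1 measured 251.04, 445 and 547 CPM in FIIN-3 libraries (n = 6), against 123.3, 246.7 and 283.9 CPM in DMSO libraries (n = 6), and the ranges overlapped. It was higher under FIIN-3 (log2 fold change 0.98 ± 0.27, edgeR adjusted p = 0.0176; 0.0507 without the filter on low counts). FN1 measured 18.8, 21.1 and 43.04 CPM in FIIN-3 libraries, against 8.76, 12.01 and 20.03 CPM in DMSO libraries and was higher (log2 fold change 0.94 ± 0.26, edgeR adjusted p = 0.0184). Without the 2 DMSO libraries that stand apart the changes were 0.67, adjusted p = 0.00229 for CDH1 and 0.65, adjusted p = 0.0245 for FN1. These were 2 of 4 members, against 25.7% of all genes. CDH3 had 0.58 ± 0.26 (0.113) and was called with the title-pair block (0.69, adjusted p = 0.0315). The summed fibroblast markers ran from 27.5 to 33.6 CPM under FIIN-3 (median 29.8), against 13.6 to 28.1 CPM at DMSO (22.6). Of the 2 tested, 1 was called higher and 0 lower, but their median log2 fold change was −0.19. Their part in the FN1 result was not tested. The highest FN1 value came from the library with the lowest total count of the series, 512961.

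In the FGF3 line, which was read less deeply, inhibitors called no member. FIIN-3 against DMSO tested 3 members and called 0 (10.4% of all genes), Fulv+FIIN-3 against Fulv called 0 of 4 (13.1%) and Fulv+Tram against Fulv 0 of 4 (7.43%), each with 1 member at an unadjusted p under 0.05 and 0 by DESeq2. In set 2 palbociclib against the group labelled control called 0 of 4 (6.54%; 1 at an unadjusted p under 0.05, 0 by DESeq2). CDH3 there measured 134.6, 142.6 and 191.8 CPM with palbociclib, against 21.6, 111.2 and 125.7 CPM in the control group (lowest, median and highest). The groups did not overlap, and 1 control library lay far below the others (log2 fold change 0.62 ± 0.25, edgeR adjusted p = 0.169). Without that library, which stands apart, the change was 0.42, adjusted p = 0.0129.

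In set 2 FGF2 was added to palbociclib, and FN1 fell in receptor lines. In the 4 FGFR2 lines FN1 measured 5.79, 14.4 and 24.4 CPM in Palbo+FGF2 libraries (n = 22), against 14.8, 22.5 and 34.5 CPM in Palbo libraries (n = 24). In FGFR2_WT cells the values were 5.79, 11.7 and 15.5 CPM with FGF2, against 16.7, 23.98 and 30.03 CPM without, and did not overlap. The medians of the FGFR2_M538I, FGFR2_N550K and FGFR2_K660N lines were 12.97, 13.4 and 19.8 CPM with FGF2, against 23.5, 19.96 and 22.4 CPM, with overlapping ranges. FN1 fell over the 4 lines (log2 fold change −0.64 ± 0.11, edgeR adjusted p = 1.96e-06). It fell in FGFR1 cells too, with 13.1, 15.3 and 20.6 CPM in Palbo+FGF2, against 19.4, 25.4 and 29.2 CPM in Palbo (log2 fold change −0.62 ± 0.17, edgeR adjusted p = 0.00874; 1 of 3 members, 24.8% of all genes). In those cells the summed fibroblast markers ran from 12.5 to 29.8 CPM with FGF2 (median 27.7), against 30.5 to 39.4 CPM without (33.1), without overlap, and their part was not tested. CDH3 rose in the FGFR2 lines, with 113.5, 129.5 and 165.8 CPM in Palbo+FGF2, against 92.5, 114.8 and 169.3 CPM in Palbo (log2 fold change 0.21 ± 0.06, edgeR adjusted p = 0.00184), so that 2 of 3 members were called against 39.2% of all genes. VIM did not pass the filter in set 2 arms of receptor lines, and DESeq2, which applies another filter, gave it −0.76, adjusted p = 0.0431 there.

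In the control lines FN1 was not called with FGF2 (log2 fold change −0.47 ± 0.13, edgeR adjusted p = 0.0897; 0 of 3 members, 1.11% of all genes, 1 at an unadjusted p under 0.05, and FN1 called by DESeq2). In GFP cells it measured 22.5, 25.2 and 26.7 CPM with FGF2, against 31.3, 38.1 and 42.3 CPM without, and the groups did not overlap. Without the library that stands apart, a parental Palbo library, the change in the controls was −0.53, adjusted p = 0.00313. The difference between receptor lines and controls was not tested here.

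FIIN-3 on top of palbociclib and FGF2 came with higher FN1. In the FGFR2 lines FN1 measured 12.2, 26.2 and 39.6 CPM in Palbo+FGF2+FIIN-3 libraries (n = 23), against 5.79, 14.4 and 24.4 CPM in Palbo+FGF2 libraries (n = 22). In FGFR2_M538I cells the groups did not overlap, with 20.7, 28.9 and 32.8 CPM with FIIN-3 and 11.3, 12.97 and 19.04 CPM without. The change over the 4 lines was 0.78 ± 0.11 (edgeR adjusted p = 6.99e-09; 1 of 3 members, 55% of all genes). In the controls FN1 measured 22.4, 33.6 and 41.4 CPM in Palbo+FGF2+FIIN-3 libraries (n = 10), against 21.1, 23.8 and 28.8 CPM in Palbo+FGF2 libraries (n = 9) and was called higher (log2 fold change 0.40 ± 0.12, edgeR adjusted p = 0.0203; 1 of 3 members, 9.45% of all genes), a call lost without the filter on low counts (adjusted p = 0.0625). In FGFR1 cells it changed by 0.53 ± 0.25 (0.153; 0 of 3 members, 16.3% of all genes, 1 at an unadjusted p under 0.05, 0 by DESeq2). The Palbo+FGF2 libraries are those set against Palbo above.

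**Figure D4:**
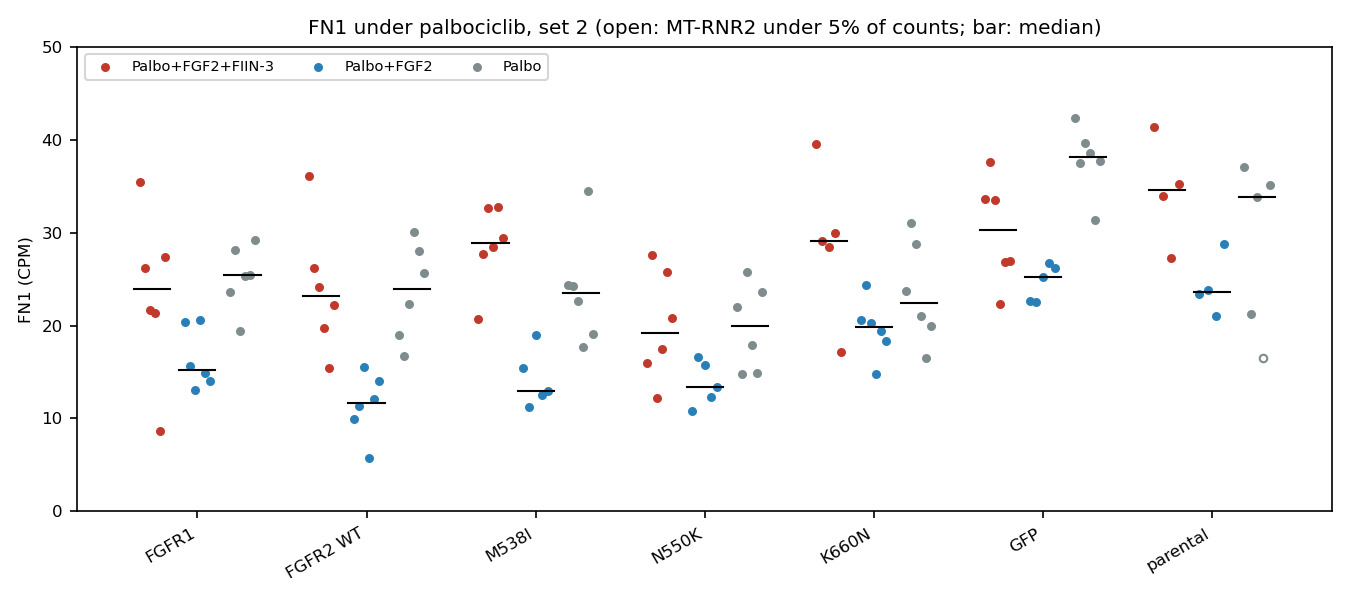
FN1 (y axis, CPM) by line (x axis) in Palbo+FGF2+FIIN-3, Palbo+FGF2 and Palbo libraries of set 2; each point is 1 library, open points have MT-RNR2 under 5% of counts, and bars are medians. The Palbo+FGF2 median is the lowest of the 3 in every line, and over the FGFR2 lines the medians are 26.2 CPM with FIIN-3, 14.4 CPM with Palbo+FGF2 and 22.5 CPM with Palbo.

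Trametinib and FIIN-3 were set against each other on the same background of fulvestrant, palbociclib and FGF2. FN1 was lower with trametinib in receptor and control lines, and CDH3 was called higher in the receptor lines. FN1 measured 6.39, 20.9 and 34.3 CPM in Fulv+Palbo+FGF2+Tram libraries (n = 29), against 16.02, 31.8 and 47.1 CPM in Fulv+Palbo+FGF2+FIIN-3 libraries (n = 28) of the 5 receptor lines (log2 fold change −0.57 ± 0.11, edgeR adjusted p = 1.04e-05). The groups did not overlap in FGFR2_WT, FGFR2_M538I and FGFR2_K660N cells. In FGFR2_N550K cells the medians were 22.1 CPM with trametinib and 20.5 CPM with FIIN-3, and in FGFR1 cells 20.4 and 26.8 CPM, with overlapping groups in both. In the controls FN1 measured 23.1, 31.96 and 37.6 CPM in trametinib libraries (n = 12), against 33.5, 45.01 and 55.6 CPM in FIIN-3 libraries (n = 11) (log2 fold change −0.54 ± 0.10, edgeR adjusted p = 4.2e-05; 1 of 3 members, 39.1% of all genes), and the GFP groups did not overlap. CDH3 in the controls had 0.13 ± 0.08 (0.189) and was not called.

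CDH3 in the receptor lines measured 139.3, 184.8 and 253.3 CPM in trametinib libraries, against 107.5, 135.97 and 167.3 CPM in FIIN-3 libraries. The FGFR2_M538I and FGFR2_N550K groups did not overlap. CDH3 was higher with trametinib (log2 fold change 0.44 ± 0.05, edgeR adjusted p = 4.81e-12), so that 2 of 3 members were called against 58.9% of all genes. VIM did not pass the filter, and DESeq2 gave it −1.33, adjusted p = 0.000144. The summed fibroblast markers ran from 35.03 to 116.1 CPM with trametinib (median of group medians 48.04), against 21.4 to 60.6 CPM (33.8) with FIIN-3, and their part in these results was not tested.

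Under FIIN-3 alone in set 2 the FGFR2_N550K line was set against GFP. CDH1 measured 358.4, 522 and 553 CPM in N550K cells, against 346.3, 397.8 and 429 CPM in GFP cells (lowest, median and highest), and was higher (log2 fold change 0.37 ± 0.09, edgeR adjusted p = 0.00774; 1 of 3 members, 11.1% of all genes). The ranges overlapped through 1 low N550K library. The summed fibroblast markers ran from 27.6 to 54.9 CPM in N550K cells (median 43.9), against 23.1 to 37.8 CPM in GFP cells (31.8), and their part was not tested.

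**Figure D5:**
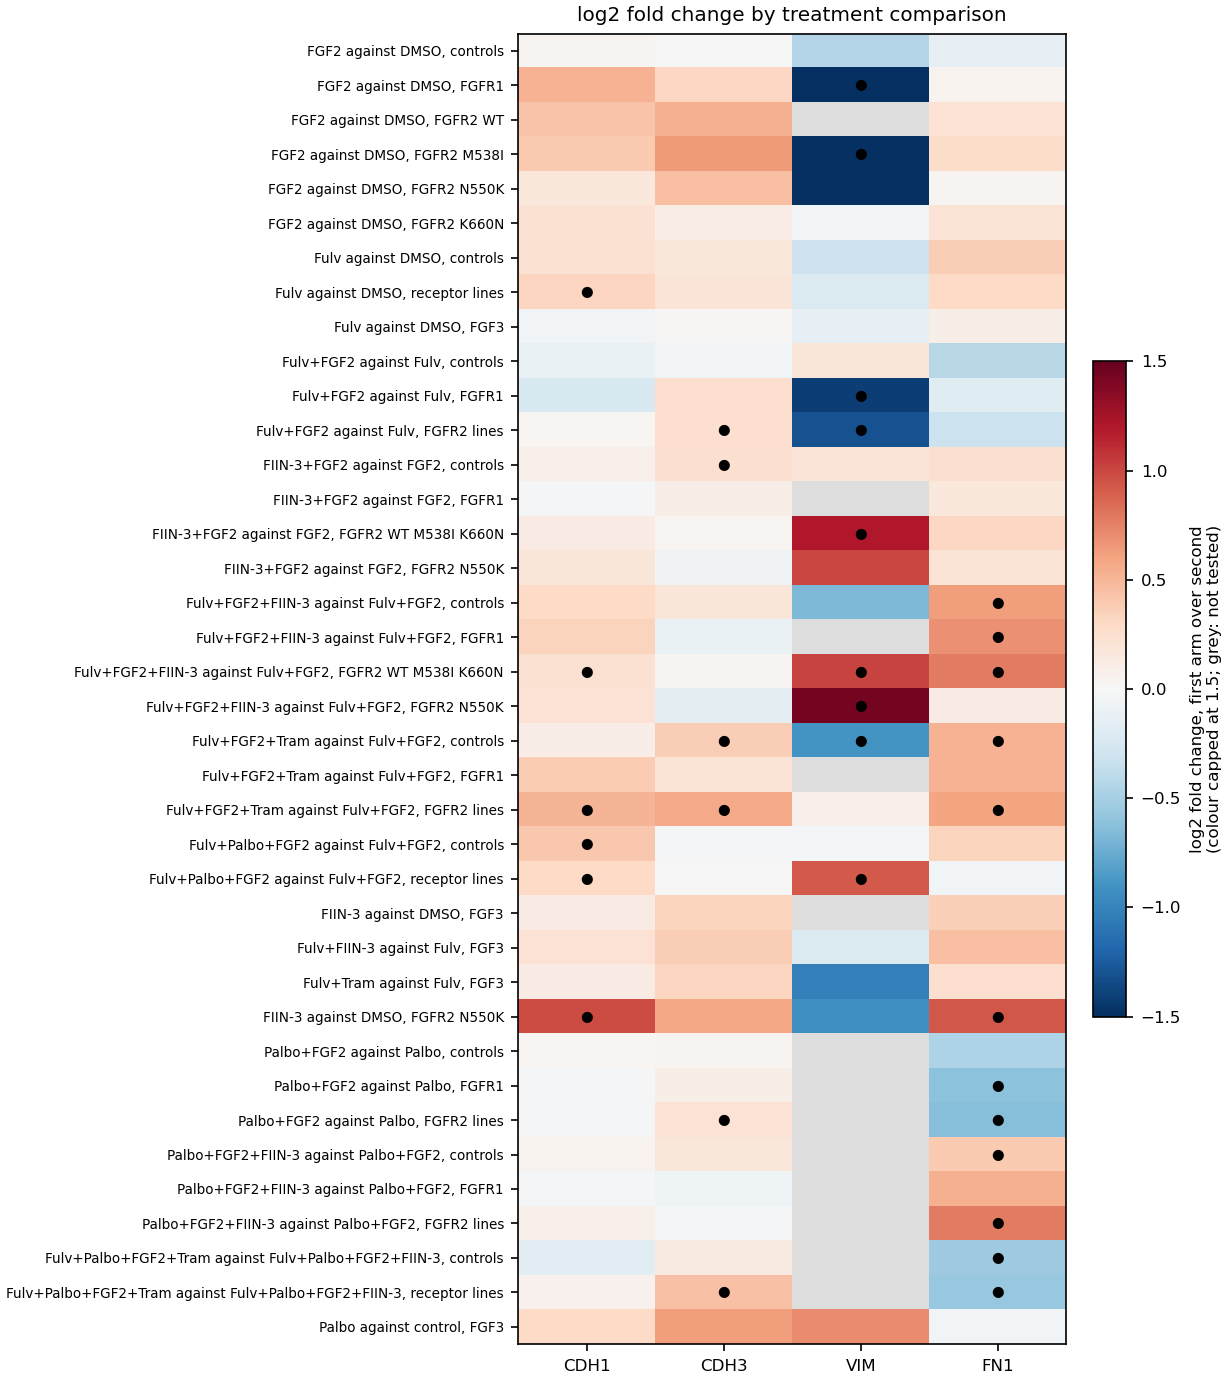
Log2 fold changes of CDH1, CDH3, VIM and FN1 (columns) in 38 comparisons (rows, first condition over second), on a colour scale capped at 1.5 in either direction, red for higher and blue for lower; dots mark edgeR adjusted p under 0.05 and the 13 grey cells were not tested. Dotted CDH1 and CDH3 cells are all red, while VIM and FN1 have dotted cells of both colours.

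Over the 46 comparisons that were not interactions CDH1 was called higher in 7 and CDH3 higher in 6, and neither was called lower. FN1 was called higher in 8 and lower in 4. VIM was tested in 32 and was called higher in 4 and lower in 5. Many of these comparisons share libraries, so the counts describe the panel and are not independent of each other. How often other genes were called over these comparisons was not counted. In a single comparison the share of all genes called reached 58.9%. Higher and lower refer to the first condition over the second, and some of these calls were lost under alternatives given above.

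A pair of lists placed the members among other junction and mesenchymal genes, an epithelial list of 30 genes and a mesenchymal list of 36, of which 10 to 16 were tested in a comparison. In the FGFR2 lines FGF2 on fulvestrant gave 13 higher and 3 lower of 30 tested epithelial genes and 6 higher and 4 lower of 12 tested mesenchymal genes, with median log2 fold changes of 0.23 and 0.16, beside −0.03 over all genes; 16.9% higher and 20.3% lower of all genes were called in that comparison. FGF2 against DMSO in FGFR1 cells gave 7 higher and 2 lower of 30 tested and 5 higher and 3 lower of 11 tested in the same order, against 14.4% higher and 17.3% lower of all genes. There ITGA5, the alpha subunit of the main fibronectin receptor, rose by 3.10 ± 0.25 (edgeR adjusted p = 4.6e-06) and L1CAM, a neural adhesion molecule, by 1.83 ± 0.28 (0.000671). S100A4, a calcium-binding protein used as a fibroblast marker, fell, with −2.14 ± 0.46 (0.00476). ESRP1, an epithelial splicing regulator, rose by 1.49 ± 0.22 (0.000565) and OCLN, a tight junction protein, by 1.38 ± 0.24 (0.00143).

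FIIN-3 on FGF2 in the FGFR2_WT, FGFR2_M538I and FGFR2_K660N lines gave 7 higher and 12 lower of 30 tested epithelial genes (median −0.12, all genes 0.00) and 4 higher and 5 lower of 13 tested mesenchymal genes (median 0.17), against 27.2% higher and 27.3% lower of all genes. ITGA5 fell with −2.19 ± 0.20 (5.39e-12), L1CAM with −1.60 ± 0.14 (7.77e-13), the desmosomal plakophilin PKP3 with −1.15 ± 0.35 (0.00515) and OCLN with −0.83 ± 0.12 (2.07e-07), while S100A4 rose by 1.11 ± 0.13 (1.84e-09). FIIN-3 on Palbo+FGF2 in the FGFR2 lines gave 4 higher and 14 lower of 29 tested epithelial genes and 4 higher and 5 lower of 11 tested mesenchymal genes, against 28.2% higher and 26.8% lower of all genes. ITGA5 fell there with −1.92 ± 0.11 (2.05e-22) and the epithelial transcription factor OVOL1 with −1.19 ± 0.16 (1.77e-09). CDH1 and CDH3 were not called lower in either comparison. All p in brackets are edgeR values adjusted over all genes.

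Trametinib on Fulv+FGF2 in the FGFR2 lines gave 15 higher and 2 lower of 30 tested epithelial genes (median 0.22, all genes 0.03) and 5 higher and 2 lower of 13 tested mesenchymal genes (median 0.05), against 15.3% higher and 13.7% lower of all genes. The epithelial transcription factor ELF3 rose by 1.10 ± 0.08 (2.7e-17), while ITGA5 had −0.66 ± 0.17 (0.00176) by edgeR. Trametinib against FIIN-3 in set 2 gave 20 higher and 4 lower of 29 tested epithelial and 6 higher and 1 lower of 11 tested mesenchymal genes, against 27.8% higher and 31.1% lower of all genes, with OVOL1 (1.37 ± 0.15) and the claudin CLDN7 (0.92 ± 0.05). FGF2 on palbociclib in the FGFR2 lines gave 16 higher and 2 lower of 29 tested epithelial and 5 higher and 3 lower of 10 tested mesenchymal genes, against 18.5% higher and 20.7% lower of all genes, with OVOL1 at 1.07 ± 0.17 and ITGA5 at 1.25 ± 0.15. In the FGF3 line at DMSO 3 higher and 0 lower of 12 tested mesenchymal genes were called, L1CAM among them (2.26 ± 0.40, edgeR adjusted p = 0.00391), and 2 higher and 0 lower of 30 tested epithelial genes, against 3.24% higher and 3.94% lower of all genes.

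Genes with the most similar pattern were sought among 17274 genes by Pearson correlation of mean log2(CPM + 1) over the 64 groups of set 1, and the same correlation over the 48 groups of set 2 is given second, in brackets. For CDH1 they included MVP (0.84 and 0.73) and QSOX1 (0.83 and 0.65). For CDH3 they were PRSS8 (0.87 and 0.86), TMBIM1 (0.87 and 0.81) and B4GALT3 (0.87 and 0.86), of which PRSS8 encodes an epithelial serine protease. For FN1 they were EZH1 (0.84 and 0.67), SLC40A1 (0.82 and 0.76) and SEPT8 (0.81 and 0.79). For VIM they were MSMB (0.79 and 0.70), APOD (0.79 and 0.58) and IFITM2 (0.79 and 0.49). Among the members themselves CDH1 and CDH3 had 0.67 and 0.76, and CDH1 and FN1 0.41 and 0.14. The groups of a set share lines, treatments and depth, so these are descriptions without a test.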

How the data were processed

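RNA from cell lysates was read by SMART-Seq2, and reads were aligned with STAR to hg19, per the submitters' processing notes; the counting program, the annotation and the strand setting are unknown here. Of the deposited tables the first holds read counts per gene, and library totals ranged from 512961 to 13012180. The second deposited table holds log2 values of TPM + 1, of which 87 columns were used and 560 not used. Groups came from the labels; set 1 and set 2 are the 2 runs of title numbers, and every comparison stayed within a set.

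Counts were tested with edgeR 4.0.16 in R 4.3.3 (quasi-likelihood F test by glmQLFit and glmQLFTest after TMM scaling and a filterByExpr filter set to 10 counts, line as an additive factor where lines were pooled), each of 49 comparisons in 16 families on its own libraries, with Benjamini-Hochberg adjustment over all genes tested and a threshold of 0.05. A gene said to rise, fall or be called passed that threshold. A ± sign joins a log2 fold change to its standard error unless said otherwise, and 3 CPM values in a row are the lowest, median and highest. CPM values describe levels and were scaled by TMM within a set. Promoters came from RefSeq (GRCh38.p14), where 4 of the 7 members had entries, and overlapping genes from GENCODE v29.

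The members, the lists and the comparisons were chosen with earlier results of these data known. The named genes are the 7 members, per member the 3 genes most like it over set 1 groups, and from the 2 lists up to 3 called genes per comparison with the largest change and a mean log2 CPM of at least 3; some genes under this rule are not reported here. Alternatives were DESeq2 size factors, no filter, the DESeq2 1.42.0 Wald test, limma 3.58.1 on the log2 table (15 comparisons), a block for pairs of neighbouring title numbers, leaving out libraries under 0.333 of the median depth, and leaving out each library where an arm had 5 or fewer. Chosen after seeing the data were a term for ranges of 96 title numbers and leaving out libraries that stand apart. Among 1559 pairs of libraries within a group none was identical and the lowest chi-square per degree of freedom was 2.64, so each was counted as a sample.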

Additional observations from a re-analysis of the deposited data

Results flagged for a closer look

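Among 448 groups of 4 to 6 libraries, over the 4 members with enough reads, 50 held 1 library far from the rest by Dixon's criterion, which chance gives in about 1 in 20 groups. The 15 below lie in groups of comparisons in which the gene was called; 3 of them are libraries that stand apart. CDH1 in set 2 had 1 far low library in 14 of its 48 groups.

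For CDH1, replicate 6 of FGFR2_N550K under FIIN-3 in set 2 had 358.4 CPM and the others 507 to 553. For CDH3 in set 1, replicate 3 of FGFR2_WT under Fulv had 27.1 CPM (others 96.99 to 118.1), replicate 3 of FGFR2_N550K under Fulv 37.2 CPM (87.7 to 103.6) and replicate 3 of FGFR2_K660N under Fulv+FGF2+Tram 56.3 CPM (130.01 to 186.8), all 3 in libraries that stand apart. Replicate 4 of FGFR2_M538I under Fulv+FGF2+Tram had 102.99 CPM of CDH3 (203.4 to 232.9). For CDH3 in set 2, replicate 2 of FGFR2_WT under Fulv+Palbo+FGF2+Tram had 253.3 CPM (162.2 to 189.99) and replicate 5 of FGFR2_N550K under Palbo+FGF2 113.5 CPM (142.3 to 152.3).

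For VIM, replicate 1 of GFP under Fulv+FGF2 had 0.178 CPM (1.92 to 2.87), replicate 6 of FGFR2_WT under Fulv+Palbo+FGF2 4.26 CPM (0.811 to 1.44) and replicate 1 of FGFR2_N550K under Fulv+FGF2 1.93 CPM (0.968 to 1.22). For FN1 in set 1, replicate 3 of FGFR2_WT under Fulv+FGF2+Tram had 8.68 CPM (19.5 to 26.9), replicate 2 of FGFR2_N550K under Fulv+FGF2 21.7 CPM (11.7 to 14.3) and replicate 1 of FGFR2_N550K under FIIN-3 43.04 CPM (18.8 to 25.5; its total count was 512961). For FN1 in set 2, replicate 1 of FGFR2_M538I had 20.7 CPM under Palbo+FGF2+FIIN-3 (27.8 to 32.8) and 40.1 CPM under Fulv+Palbo+FGF2+FIIN-3 (30.2 to 32.4).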

How the results depend on the processing

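No called member changed direction under any alternative that was run; 94 values that passed in neither fit changed sign. Counts of members called per family moved by over 1.5 times as follows. For lines against GFP (0 in the reported fit) the DESeq2 Wald test gave 1 and leaving out libraries that stand apart 1. For FGF2 against DMSO (2) DESeq2 gave 4 and the block for pairs of title numbers 1. For fulvestrant (1) no filter gave 0, the block 3, the title-range term 3 and leaving out libraries that stand apart 0. No filter gave 1 for FIIN-3 on FGF2 (2), 1 for inhibitors in the FGF3 line (0; CDH2, Fulv+Tram against Fulv, with 0 reads in all Fulv+Tram libraries), 1 for FIIN-3 in FGFR2_N550K cells (2) and 1 for FIIN-3 on palbociclib and FGF2 (2). DESeq2 gave 5 for FGF2 under palbociclib (3). For palbociclib in the FGF3 line (0) leaving out libraries of low depth gave 1 and leaving out those that stand apart 1. For the interactions (0) the title-range term gave 3 (VIM and CDH1 for FGFR1, CDH3 for the FGFR2 lines). Leaving out 1 library at a time gave 0 to 1 calls for lines against GFP, the 1 without GFP DMSO replicate 6, 1 to 2 for FGF2 against DMSO, 1 to 1 for fulvestrant and 0 to 0 for inhibitors in the FGF3 line. The cause of these shifts was not tested. limma was not run for 34 comparisons. No pairing by label was possible because the labels tie no replicate number of one group to that of another. The title-pair block instead ranked the pairs of neighbouring title numbers within each group. Libraries of equal rank then shared a term across the groups and arms of a comparison. VIM, at a median near 1 TPM, and the shallower set 2 limit what could be called.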
